A study of Arabidopsis thaliana with 16 samples.

Results

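The chalazal seed coat, the part of the maternal seed coat at the base of the Arabidopsis seed, was compared with the seed coat captured as a separate compartment. Members were chosen by their titles: 3 arrays titled chalazal seed coat and 2 titled seed coat, 5 of the 16 arrays of the series. The series profiled whole seeds and 6 compartments with 2 or 3 Affymetrix ATH1 arrays each: both seed coat regions, the embryo proper, and the endosperm in its micropylar, peripheral and chalazal parts. Both seed coat groups came from plants of the Ws-0 accession, with no mutation or treatment named, grown in continuous light. Siliques of 1.2 to 1.5 cm were cut from plants 38 to 46 days old and held seeds with heart-shaped embryos of 52 to 85 micrometres. They were fixed in ethanol and acetic acid and embedded in paraffin, and the regions were cut out of sections by laser microdissection, so that each sample is a region that can hold several cell types. From each sample 5 to 6 ng of RNA was amplified, labelled with biotin and hybridised. The arrays are labelled biological replicates without a statement that they came from separate plants. The p-values rest on the spread between arrays within groups, pooled over all 16 arrays of the series. They cannot be taken to measure the spread between plants, or that of the 5 seed coat arrays alone. In such bulk samples, fewer cells of a type and less RNA per cell cannot be told apart.

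The seed coat forms from the integuments of the ovule and surrounds the endosperm and embryo. Its chalazal region lies where the funiculus, the stalk that ties the seed to the fruit, brings in the single vascular strand, which ends there: phloem unloads sugars, amino acids and minerals that then pass out of the maternal tissue toward the chalazal endosperm next to it. The other seed coat layers accumulate proanthocyanidins in the innermost layer and starch and later mucilage in the epidermis, and some of their cell layers die early in seed development.

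Each level below is the deposited linear signal of a probe set, a set of short oligonucleotides for one transcript, and the levels are given in the order of chalazal seed coat arrays 1, 2 and 3 against seed coat arrays 1 and 2. Differences are log2 values, chalazal seed coat minus seed coat, with the standard error (SE) of a limma fit on median-centred arrays, n = 3 against n = 2. A probe set was called where its Benjamini-Hochberg adjusted p over all 22746 Arabidopsis probe sets was under 0.05, and higher or lower means called unless values are given without such a word. A gene is said to lose its call where leaving out the named array brought its limma adjusted p over 0.05. The array named is chalazal seed coat 1 to 3 (written chalazal) or seed coat 1 or 2, and the highest such p is given for most genes. Where every array of the dimmer group lay at or under its background bound (the 95th percentile of 27 Bacillus control probe sets, 62.6 to 137 signal units on these 5 arrays), the difference is given as at least N-fold, measured against the higher of the bound and the signal on each such array.

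The 2 seed coat arrays correlated at r = 0.935 over all Arabidopsis probe sets on the log2 scale, and the 3 chalazal seed coat arrays at 0.837, 0.867 and 0.862 with each other. Chalazal seed coat array 3 was closer to the seed coat arrays (0.817 and 0.817) than arrays 1 and 2 were (0.741 to 0.751). The median SD of a probe set on the log2 scale was 0.627 for the chalazal arrays and 0.323 for the seed coat arrays. The cre hybridisation controls were brighter in the chalazal seed coat (197800 to 242452) than in the seed coat (114924 and 148558), and the share of probe sets above the bound was 56.5% to 61.9% against 54.8% and 60.5%. Their part in the results was not tested.

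Transcripts of the neighbouring chalazal endosperm were measured through a list of 50 probe sets chosen from arrays outside the comparison. They represent 49 genes, AT4G37950 having a pair, and are those with the largest excess of chalazal endosperm over the mean of the other endosperm regions and the embryo proper. Their median signal was 396, 882 and 506 on the chalazal seed coat arrays against 24.5 and 24.6 on the seed coat arrays. The chalazal endosperm arrays themselves had medians of 18187 to 29948. As a share of the chalazal endosperm mean, the median probe set of the list stood at 1.96%, 3.61% and 2.57% in the chalazal region and at 0.105% and 0.0999% in the seed coat. On the chalazal seed coat arrays 6, 4 and 0 of the 50 lay at or under the bound, on the seed coat arrays 46 and 39. In the comparison 44 of them were higher and 0 lower, with a median log2 difference of 3.15. Among all probe sets that name 1 gene, 3.51% were higher and 4.48% lower. The median difference over all probe sets was -0.04. The part of these transcripts in the results was not tested, and the level in the chalazal endosperm is given below beside each higher gene that was brighter there.

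**Figure D1:**
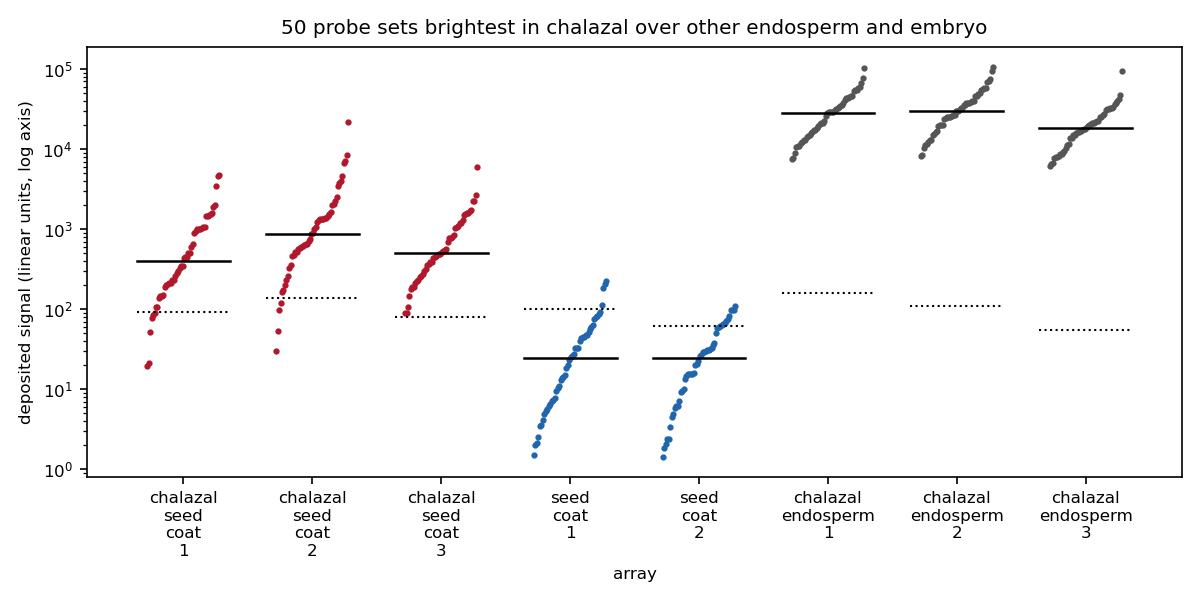
Deposited signal (log axis) of the 50 probe sets of the chalazal endosperm list on each array of the chalazal seed coat (red), the seed coat (blue) and the chalazal endosperm (grey), 1 point per probe set; solid lines are medians and dotted lines the background bound of each array. The chalazal seed coat medians of 396 to 882 lie above the seed coat medians of 24.5 and 24.6 and far below those of the chalazal endosperm.

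Between the regions, 2043 of 22746 probe sets (8.98%) were called by limma, 842 higher (3.7%) and 1201 lower (5.28%) in the chalazal seed coat, and 4665 had an unadjusted p under 0.05. Large differences were common among them: 679 of the higher and 918 of the lower probe sets differed by more than 2 on the log2 scale, and 186 and 140 by more than 4. The arrays of the regions did not overlap for 2039 of the 2043 called probe sets, while over all probe sets 15.0% did not overlap with the chalazal seed coat above and 19.8% with it below. For 438 of the higher probe sets neither seed coat array exceeded its bound, and for 204 of the lower ones none of the 3 chalazal seed coat arrays did. The excess of lower over higher calls depended on the scaling: without median centring, which moved the median difference of all probe sets from -0.04 to 0.14, 1039 were higher (4.57%) and 931 lower (4.09%). Without chalazal seed coat array 3 the calls were 844 higher (3.71%) and 1284 lower (5.64%). Leaving 1 of only 2 seed coat arrays out gave fewer, 473 and 554 without array 1, and 457 and 443 without array 2.

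**Figure D2:**
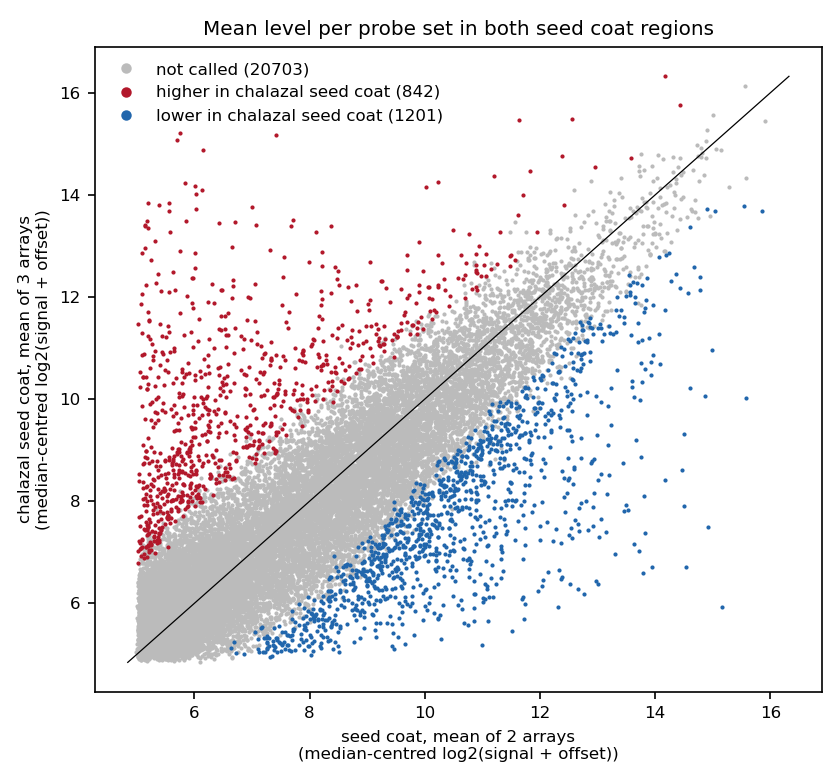
Mean level of each Arabidopsis probe set in the seed coat (horizontal axis, 2 arrays) and the chalazal seed coat (vertical axis, 3 arrays), both as median-centred log2 of signal plus an offset; the line marks equal levels. The 842 probe sets called higher in the chalazal seed coat (red) lie above the line and the 1201 called lower (blue) below it.

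The called probe sets were also read in the other compartments. Of the 842 higher probe sets, 535 had their brightest mean among the 6 compartments in the chalazal seed coat, and 804 of the 1201 lower ones had theirs in the seed coat. Both sets were chosen for a high level in the region named, which partly fixes these counts. Brighter in the chalazal endosperm than in the chalazal seed coat were 243 of the higher probe sets, which leaves 599 that were not, and for 199 every chalazal endosperm array was at or under its bound. The shares of all probe sets that meet these conditions were not computed, so the counts do not measure how particular the genes are to a region. Among the embryo and the 3 endosperm regions, the chalazal endosperm was the brightest for 56.9% of the higher, 21% of the lower and 42% of all probe sets.

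The 12 genes with the largest higher differences, taken among those whose arrays did not overlap between regions, were at or near background in the seed coat and bright in the chalazal seed coat, and 11 of them carry a locus name only. AT3G10590 led, at 40143, 42952 and 41445 against 9.94 and 38.8 (at least 331-fold higher, adjusted p = 5.85e-10). It was also present in the chalazal endosperm, at 498 to 8616. The next were AT3G14780, AT4G33550, AT5G40980, AT4G22050, AT2G38800, AT5G24580, AT4G22400, LCR68, AT1G43910, AT1G26450 and AT4G29570, with log2 differences from 8.66 down to 7.76. Over the 12 genes the chalazal seed coat signals ran from 6585 to 42952 and the seed coat signals from 2.01 to 110.0. The annotated member was LCR68, a plant defensin of the PDF2 type, at 24752, 27493 and 10609 against 110.0 and 2.63 (log2 difference 7.98 ± 0.66, adjusted p = 2.03e-09). The 12 most negative differences, taken by the same rule, held THI2.1, a thionin known as a jasmonate-inducible antimicrobial peptide, at 11, 183 and 4.32 against 33553 and 37373 (log2 difference -9.22 ± 0.73, adjusted p = 1.33e-09). DELTA-VPE, a vacuolar processing enzyme known from the early death of inner seed coat layers, read 105, 473 and 237 against 22961 and 21923 (log2 difference -6.59 ± 0.49, adjusted p = 5.85e-10). The other 10 were AT1G11590, AT5G47350, AT1G49800, AT1G29660, AT3G05600, AT5G60630, AT1G12010, AT4G03930, AT2G41990 and AT5G44360, with differences from -7.81 to -6.03. Their chalazal seed coat signals were 3.02 to 473 with the annotated pair included, and their seed coat signals 3114 to 37373.

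Genes were read in lists by function, 1 probe set per gene, against a background of 3.51% higher and 4.48% lower among the 13513 probe sets that name a single gene. Among the lists in the plot of counts by list, which leaves out families gathered within or beside them, the proteases, the glycosyltransferases with the beta-glucosidases, and the cellulose and hemicellulose genes held the most lower genes. The wall loosening genes held the most higher ones. Many members were dim on all 5 arrays, and their number is given where it was large.

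**Figure D3:**
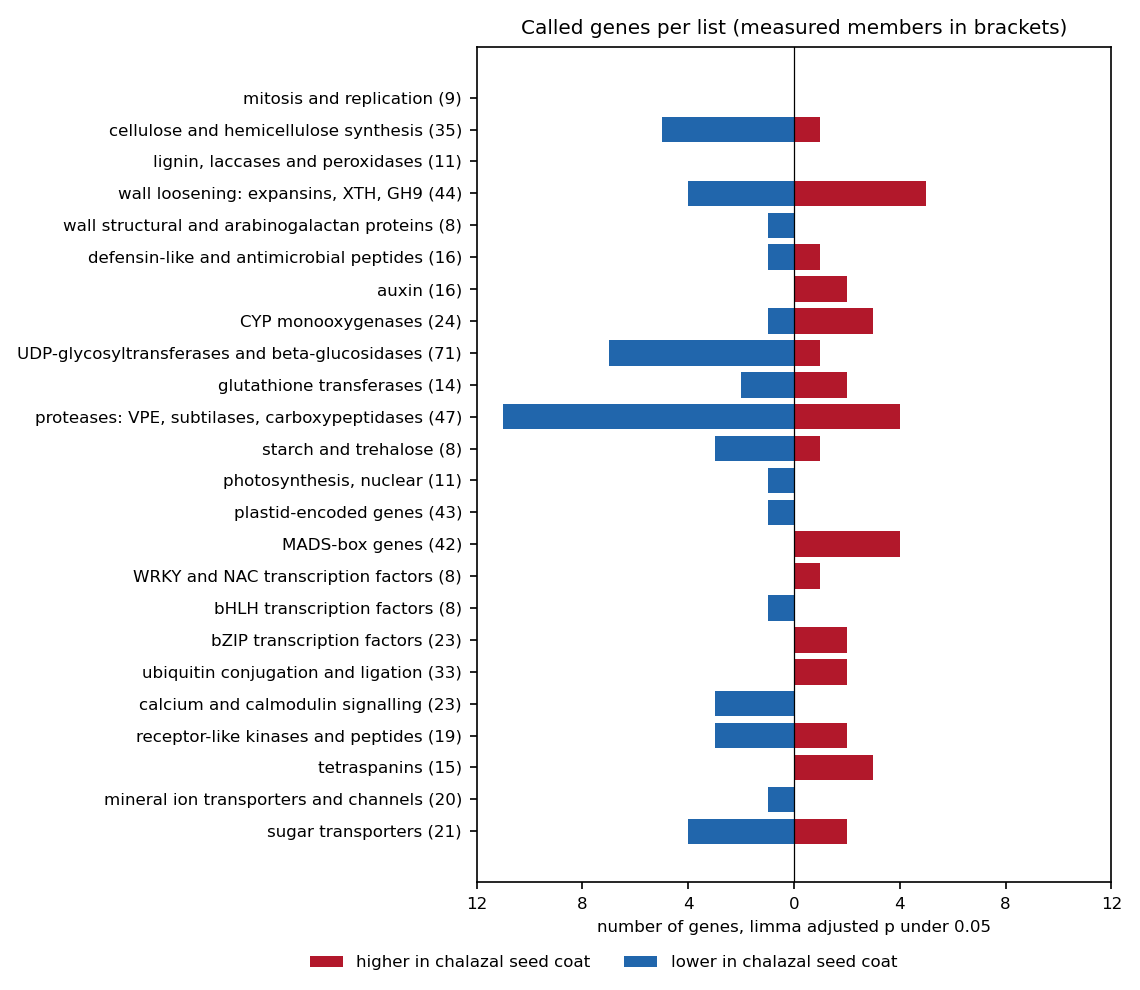
Number of genes called higher (red, right) and lower (blue, left) in the chalazal seed coat for each functional list with at least 8 measured genes, the number measured being in brackets. Families gathered within or beside these lists are left out. The protease list has the longest bar, with 11 lower genes of 47, and the mitosis and lignin lists have none.

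Sugar transport differed by family member. Of 21 measured sugar transporter genes 2 were higher and 4 lower, and 7 were at or under the bound on all 5 arrays. SWEET10, of the SWEET family of sugar uniporters and of the branch known for sucrose export, read 9836, 8953 and 14738 against 8.71 and 24.8 (at least 87.3-fold higher, adjusted p = 2.95e-09). SWEET4, known as a hexose transporter, read 606, 400.2 and 463 against 1.46 and 7.52 (at least 4.1-fold higher, adjusted p = 0.00012). Neither exceeded the bound on a seed coat array, both exceeded it on every chalazal seed coat array, and their chalazal endosperm signals were 10.1 to 123 and 1.34 to 58.3. SWEET1, a glucose uniporter, went the other way at 7.17, 91 and 46.7 against 812 and 603 (at least 6.28-fold lower, adjusted p = 0.00053), and SWEET7 was lower as well at 50.2, 66.7 and 365 against 638 and 615 (log2 difference -2.35 ± 0.72, adjusted p = 0.036). Chalazal seed coat array 3 gave the highest SWEET7 signal of its group, still under both seed coat arrays. SWEET7 (without chalazal 1 or 2 or seed coat 1 or 2, adjusted p up to 0.22) lost the call with 1 array left out. The other 12 SWEET genes, SAG29 and AtVEX1 among them, were not called, with log2 differences from -1.34 to 1.55. SWEET11, known for sucrose efflux to the embryo, read 10.8, 432 and 78.6 against 11.2 and 34.9, with a single bright array, and SWEET8 read 64.9, 183 and 46.2 against 4.68 and 4.59 beside 3637 to 5799 in the chalazal endosperm. TMT1, which loads monosaccharides into the vacuole, was lower at 4.23, 82.7 and 85.8 against 717 and 789 (log2 difference -3.53 ± 0.60, adjusted p = 0.00017), as was SFP2, of the ERD6-like family of sugar porters, at 176, 214 and 375 against 1408 and 1349 (log2 difference -2.55 ± 0.63, adjusted p = 0.008). TMT2 was not called at 155, 213 and 207 against 311 and 212 (log2 difference -0.56 ± 0.55, adjusted p = 0.65). SFP2 (without seed coat 1 or 2, adjusted p up to 0.095) lost the call with 1 array left out.

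The nitrogen and specialised solute carriers held 1 marked case. GTR2, an importer of glucosinolates known for loading these defence compounds into seeds, read 756, 652 and 1709 against 10.6 and 13.2 (at least 7.8-fold higher, adjusted p = 9.18e-06), with low signals in the chalazal endosperm (7.08 to 39.3). Its close relative GTR1 read 154, 414 and 299 against 33.3 and 105 and was not called (log2 difference 1.52 ± 0.62, adjusted p = 0.15). Of 20 mineral ion transporters and channels none was higher and 1 was lower, MTP11, a manganese carrier, at 639, 1609 and 928 against 2904 and 3235 (log2 difference -1.79 ± 0.51, adjusted p = 0.025), while 7 were at or under the bound on all 5 arrays. ZIP6, of a family of zinc and iron carriers, was bright in both regions at 11252, 14367 and 7481 against 5430.2 and 3672 (log2 difference 1.07 ± 0.58, adjusted p = 0.32). VHA-A2, a membrane subunit of the vacuolar proton pump, was the lower 1 of 3 pump genes at 189, 126 and 353 against 593 and 773 (log2 difference -1.76 ± 0.53, adjusted p = 0.035), and none of 6 MATE and other solute carriers was called. MTP11 (without chalazal 1 or 3 or seed coat 1 or 2, adjusted p up to 0.23) and VHA-A2 (without chalazal 1 or 2 or seed coat 1 or 2, adjusted p up to 0.31) lost the call with 1 array left out.

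**Figure D4:**
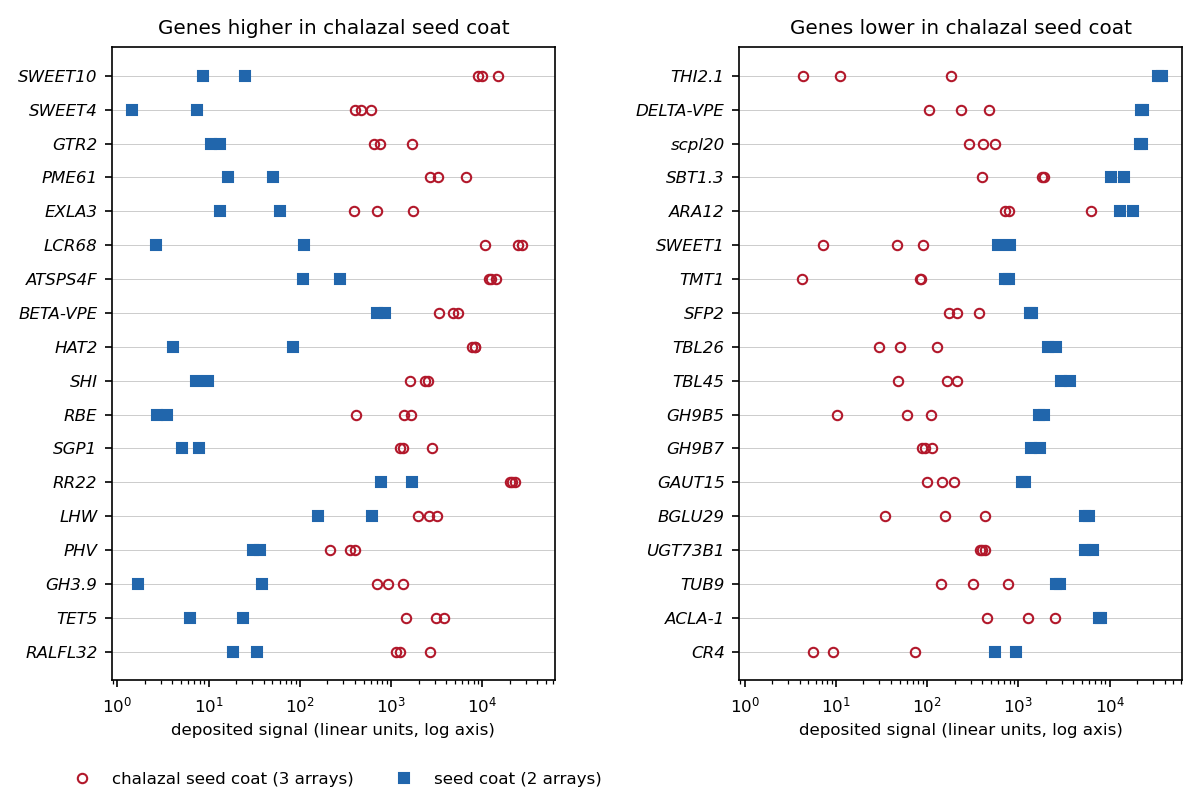
Deposited signal (log axis) of 18 genes called higher (left) and 18 called lower (right) in the chalazal seed coat, with 1 open circle for each of the 3 chalazal seed coat arrays and 1 filled square for each of the 2 seed coat arrays. The genes were picked as examples from the called genes named in the text; ARA12 has its chalazal seed coat array 3, at 6318, nearest to the seed coat arrays.

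Carbohydrate genes were called in both directions, with 1 sucrose gene higher and 3 starch genes lower. ATSPS4F, a sucrose-phosphate synthase that makes the precursor of sucrose, read 14247, 12576 and 11707 against 107 and 273 (log2 difference 5.80 ± 0.54, adjusted p = 2.04e-08) and was low in the chalazal endosperm (78 to 152). Of 8 genes on the starch and trehalose list it was the 1 that was higher, and 3 were lower. These were APL3, a large subunit of the enzyme that makes ADP-glucose for starch, at 373, 369 and 618 against 2658 and 2155 (log2 difference -2.54 ± 0.59, adjusted p = 0.0051), DPE1, a plastid disproportionating enzyme of starch breakdown, at 890.2, 126 and 247 against 1976 and 2233 (log2 difference -2.82 ± 0.70, adjusted p = 0.0084), and the starch branching enzyme SBE2.2 at 3063, 1906 and 1532 against 5962 and 5549 (log2 difference -1.64 ± 0.52, adjusted p = 0.048). For each of the 3 every chalazal seed coat array lay below both seed coat arrays. This adds little to the call, since arrays did not overlap for 2039 of the 2043 called probe sets. Not all starch genes went this way: APL4, another large subunit, read 561, 558 and 239 against 257 and 182 (log2 difference 0.70 ± 0.60, adjusted p = 0.58). For PWD, a starch phosphorylating enzyme, the brighter of 2 probe sets was not called and the dimmer one was higher, so no direction is given. APL3 (without seed coat 1 or 2, adjusted p up to 0.084), DPE1 (without chalazal 2 or seed coat 1 or 2, adjusted p up to 0.12) and SBE2.2 (without chalazal 2 or 3 or seed coat 1 or 2, adjusted p up to 0.26) lost the call with 1 array left out.

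Cell wall genes were called in both directions, with opposite members of the same families. Of 44 wall loosening genes 5 were higher and 4 lower. Among the expansins and their relatives, which loosen walls without cutting them, EXLA3 read 394, 709 and 1752 against 13.4 and 60.1 (at least 6.57-fold higher, adjusted p = 0.00065), EXLA2 186, 854 and 211 against 6.94 and 65.4 (log2 difference 2.41 ± 0.72, adjusted p = 0.031) and EXPB2 162, 401 and 109 against 17.5 and 12 (at least 1.8-fold higher, adjusted p = 0.029). All 3 were higher, whereas EXLA1 was bright in both regions at 19339, 24167 and 21568 against 15602 and 15405 (log2 difference 0.30 ± 0.54, adjusted p = 0.84). None of the 10 alpha-expansins was called, the nearest being EXPA9 at 159, 112 and 154 against 35 and 2.23 (log2 difference 1.71 ± 0.59, adjusted p = 0.067). Of 10 xyloglucan endotransglucosylase genes, which cut and rejoin xyloglucan, EXGT-A3 was lower at 1112, 1427 and 1363 against 4764 and 6057 (log2 difference -2.21 ± 0.56, adjusted p = 0.01), and 5 were at or under the bound on all 5 arrays. EXLA2 (without chalazal 2 or seed coat 1, adjusted p up to 0.42), EXPB2 (without chalazal 1 or 2 or seed coat 1 or 2, adjusted p up to 0.2) and EXGT-A3 (without seed coat 1 or 2, adjusted p up to 0.17) lost the call with 1 array left out.

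The glycosyl hydrolase family 9, the endoglucanases that act on cellulose and related glucans, had 2 higher and 3 lower of 15 genes. GH9B5 read 59.6, 10.4 and 111 against 1914 and 1662 (log2 difference -4.68 ± 0.65, adjusted p = 1.05e-05) and GH9B7 114, 95.5 and 88.7 against 1743 and 1369 (log2 difference -3.79 ± 0.58, adjusted p = 4.15e-05), so every chalazal seed coat array was far below both seed coat arrays. GH9A3 was lower by a smaller amount, at 571, 811 and 1048 against 2281 and 2642 (log2 difference -1.78 ± 0.49, adjusted p = 0.018). The higher pair was far brighter in the chalazal endosperm: GH9B17 read 147, 3815 and 1209 against 27.3 and 110.3 (log2 difference 3.22 ± 0.73, adjusted p = 0.0038) beside 31136 to 39797 there, and GH9B11 149, 587 and 234 against 83.4 and 22.8 (at least 2.46-fold higher, adjusted p = 0.04) beside 15098 to 21859. GH9A3 (without seed coat 1 or 2, adjusted p up to 0.21), GH9B17 (without seed coat 1, adjusted p up to 0.15) and GH9B11 (without chalazal 2 or seed coat 1 or 2, adjusted p up to 0.42) lost the call with 1 array left out.

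Among cellulose and hemicellulose genes, 1 of 35 was higher and 5 were lower, and all of those called belong to the TBL family, whose members add acetyl groups to wall polysaccharides. TBL26 read 50.8, 29.8 and 128 against 2089.6 and 2561 (log2 difference -4.86 ± 0.74, adjusted p = 3.41e-05) and TBL45 48.5, 214 and 164 against 3665 and 2962 (log2 difference -4.60 ± 0.63, adjusted p = 8.76e-06). TBL30, TBL25 and TBL37 were lower with smaller differences of -2.52 ± 0.60, -2.43 ± 0.65 and -2.30 ± 0.70. The higher member was AT2G31110 (TBL40), at 5337, 1279 and 1722 against 106 and 109 (log2 difference 3.89 ± 0.71, adjusted p = 0.00041), and another probe set for it was higher too. TBL38 was not called at 3875, 4078 and 8010.3 against 8490.0 and 9409.8 (log2 difference -1.01 ± 0.61, adjusted p = 0.38). TBL30 (without seed coat 2, adjusted p up to 0.18), TBL25 (without chalazal 2 or seed coat 2, adjusted p up to 0.36) and TBL37 (without chalazal 1 or seed coat 1 or 2, adjusted p up to 0.23) lost the call with 1 array left out. Pectin genes were called both ways: PME61, a pectin methylesterase, read 6555, 2662 and 3251 against 50.8 and 16.2 (at least 30.9-fold higher, adjusted p = 3.00e-07), and GAUT15, of the family that builds the galacturonan backbone, 100.1, 144 and 198 against 1091 and 1184 (log2 difference -2.93 ± 0.64, adjusted p = 0.0028). The remaining 4 of 6 pectin genes were not called. GAUT15 (without seed coat 2, adjusted p up to 0.058) lost the call with 1 array left out. SKU5, a cell surface protein of the multicopper oxidase-like family, was the lower 1 of 8 structural and arabinogalactan proteins (at least 1.45-fold lower, adjusted p = 0.023), at 4.41, 12 and 3.06 against 109 and 174. No gene of the 11 on the lignin, laccase and peroxidase list was called, and HCT, of the lignin pathway, read 2282, 547 and 1781 against 3380.2 and 3363 (log2 difference -1.52 ± 0.58, adjusted p = 0.11). SKU5 (without chalazal 3 or seed coat 1 or 2, adjusted p up to 0.26) lost the call with 1 array left out.

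Few vascular genes were on the lists, which match only probe sets annotated to 1 gene, and most were dim. As 8730 of 22746 probe sets name no gene, vascular genes among those were not read. The pair on the procambium and vascular patterning list was higher. LHW, a bHLH factor that promotes the divisions that form vascular tissue, read 1986, 2614 and 3221 against 614 and 156 (log2 difference 2.72 ± 0.70, adjusted p = 0.011). PHV, a class III homeodomain-leucine zipper factor of vascular and upper-side patterning, read 212, 405 and 352 against 31 and 36.6 (at least 2.74-fold higher, adjusted p = 0.023), with neither seed coat array over the bound. Neither of these genes was bright in the chalazal endosperm, at 28.3 to 187 and 5.76 to 72.1. LHW (without seed coat 2, adjusted p up to 0.31) and PHV (without chalazal 2 or 3 or seed coat 1 or 2, adjusted p up to 0.19) lost the call with 1 array left out. Of 4 phloem genes none was called and 3 (CLE41, CLE44 and ATPP2-B3) were at or under the bound on all 5 arrays. OPS, known from early phloem differentiation in the root, was above the bound only in the chalazal seed coat, at 352, 316 and 170.0 against 74.9 and 52.4, without reaching the threshold (log2 difference 1.50 ± 0.60, adjusted p = 0.13). IRX15, the single gene measured on the xylem and secondary wall list, was at or under the bound on all 5 arrays. With 4 phloem and 1 xylem gene on the lists, a difference in conducting cells could not be judged from them.

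Both regions carried seed coat markers. DFR, which makes the precursors of proanthocyanidins, read 17479.5, 21184 and 12615 against 24771 and 26245 (log2 difference -0.79 ± 0.50, adjusted p = 0.41), and CHIL, a chalcone isomerase-like protein of the same pathway, 6208, 5469 and 4525 against 7359.6 and 7774 (log2 difference -0.67 ± 0.58, adjusted p = 0.58). BAN, the anthocyanidin reductase that marks proanthocyanidin-making cells, read 1759.6, 3888 and 3908 against 10159.5 and 7870.1 (log2 difference -1.75 ± 0.61, adjusted p = 0.076). Its signals on the chalazal seed coat arrays lay below both seed coat arrays, as for 19.8% of all probe sets, and the difference did not pass the threshold. None of the 5 genes on that list was called, their median difference was -0.79 beside -0.04 over all probe sets, and DFR and BAN were far lower in the chalazal endosperm (148 to 523 and 6.36 to 79.3). UGT78D1, a flavonol rhamnosyltransferase outside the list, was lower at 8609, 4162 and 5673 against 33130.2 and 22296 (log2 difference -2.38 ± 0.62, adjusted p = 0.012). UGT78D1 (without chalazal 2 or seed coat 1 or 2, adjusted p up to 0.17) lost the call with 1 array left out.

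The epidermal mucilage list had 3 measured genes. ARA12, a subtilisin-like protease required for mucilage release, read 794, 706 and 6318 against 17884 and 12851 (log2 difference -3.46 ± 0.70, adjusted p = 0.0013). Chalazal seed coat array 3 had several times the ARA12 signal of arrays 1 and 2 and was still below both seed coat arrays. The loci AT2G22900 and AT3G10320, on the list by locus, went in opposite directions, at 73.8, 289 and 246 against 701 and 549 (log2 difference -1.82 ± 0.57, adjusted p = 0.042) and 275, 401 and 471 against 70.8 and 45.6 (at least 3.23-fold higher, adjusted p = 0.014). Among the 1201 lower probe sets array 3 was the highest of its group for 616, and among the 842 higher ones it was the lowest for 356. AT2G22900 (without chalazal 1 or seed coat 1 or 2, adjusted p up to 0.26) and AT3G10320 (without seed coat 1 or 2, adjusted p up to 0.16) lost the call with 1 array left out.

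Embryo markers were mostly dim, while the endosperm regulators were divided. The median signal of the endosperm regulators was 192, 442 and 289 in the chalazal region and 163 and 144 in the seed coat. None of the 4 endosperm regulators was called: IKU2 and AGL62 did not exceed the bound on any of the 5 arrays, while DME read 612, 822 and 658 against 722 and 248 and IKU1 299, 1002 and 539.7 against 322 and 325. Of 5 embryo patterning genes CR4, a receptor kinase known from epidermal layers of the embryo and of the ovule integuments, was lower at 5.68, 9.33 and 74.1 against 552 and 953 (at least 6.5-fold lower, adjusted p = 0.00014). BBM, CLV3, YAB3 and YAB5 were not called, and their highest signal on the 5 arrays was 172. The median embryo marker signal was 36.7 to 74.8 in the chalazal region and 35.1 and 58.5 in the seed coat.

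The protease list held the most lower genes of the functional lists, 11 of 47 (23.4%) against 4 higher (8.51%), and without chalazal seed coat array 3 the counts were 12 and 3. Serine carboxypeptidase-like (SCPL) genes made up most of them, with 8 lower and 1 higher of 29. Among the lower ones, SCPL27 lost the call without seed coat 2, and scpl29 without chalazal 2 or seed coat 2. The call of scpl48 was lost without chalazal 2 or seed coat 1 or 2. The brightest was scpl20, at 408, 548 and 290.3 against 22559 and 21430 (log2 difference -5.85 ± 0.54, adjusted p = 1.53e-08). Others with more than 3 log2 units of difference were scpl35 (-3.95 ± 0.78), scpl26 (-3.86 ± 0.59), scpl42 (-3.70 ± 0.56) and SCPL34 (-3.54 ± 0.69). In each of these every chalazal seed coat array was below both seed coat arrays, which holds for nearly all probe sets called lower. The exception was scpl31, higher at 1289, 583 and 483 against 56.6 and 12.3 (at least 5.95-fold higher, adjusted p = 0.00041). Among the subtilases, serine proteases of the cell wall, SBT1.3 was lower at 403, 1927 and 1799 against 10334 and 14455 (log2 difference -3.58 ± 0.71, adjusted p = 0.001), like ARA12. SBT4.13 was higher at 51.8, 472 and 355 against 6.16 and 9.28 (at least 2.01-fold higher, adjusted p = 0.014), with 14245 to 21287 in the chalazal endosperm. ATSBT5.2 was called as well, and lost the call without chalazal 1 or seed coat 1 or 2. SBT4.13 (without chalazal 2 or 3 or seed coat 1 or 2, adjusted p up to 0.13) lost the call with 1 array left out.

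The 4 vacuolar processing enzymes, cysteine proteases that mature or release vacuolar proteins, did not share 1 pattern. DELTA-VPE was low in the chalazal seed coat and bright in the seed coat, at the values given above. BETA-VPE, known for processing seed storage proteins, was higher at 4728, 5450.3 and 3366 against 701 and 858 (log2 difference 2.29 ± 0.51, adjusted p = 0.0035). GAMMA-VPE, the form known from vegetative tissue, was bright in both regions at 11278, 8546 and 8884 against 9895 and 7079 (log2 difference 0.00 ± 0.40, adjusted p = 0.999). ALPHA-VPE read 9.65, 56 and 39.4 against 12.9 and 73.7, with 1 array above the bound (log2 difference -0.29 ± 0.61, adjusted p = 0.87). The DELTA-VPE and BETA-VPE arrays did not overlap between regions, which holds for nearly all called probe sets. BETA-VPE (without seed coat 1, adjusted p up to 0.081) lost the call with 1 array left out.

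Defence peptides held 1 called gene of 16 in each direction (6.25% each). The shares among probe sets that name 1 gene were 3.51% higher and 4.48% lower. LCR68 was higher and THI2.1 lower, each near background in the opposite region, and both are among the largest differences named above. The other 14 of 16 defensin-like and antimicrobial peptide genes were not called, among them LCR69, another PDF2 defensin, which was bright in both regions at 12141, 8258 and 1604 against 5991 and 1746 (log2 difference 0.57 ± 0.64, adjusted p = 0.7). JAL34, a jacalin-type lectin, was lower at 67.2, 188 and 78.3 against 384 and 804 (log2 difference -2.33 ± 0.61, adjusted p = 0.013). JMT, which methylates jasmonic acid, was lower at 94.2, 305 and 209 against 1398 and 361 (log2 difference -1.98 ± 0.62, adjusted p = 0.042). JAL34 (without seed coat 2, adjusted p up to 0.28) and JMT (without chalazal 1 or 3 or seed coat 1, adjusted p up to 0.55) lost the call with 1 array left out.

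The called genes of the cytokinin and auxin lists were all higher. The median difference was 1.77 over the 6 cytokinin genes and -0.25 over the 16 auxin genes, beside -0.04 over all probe sets. Of the auxin genes 14 were not called, and 5 were at or under the bound on all 5 arrays. Of 6 cytokinin genes, all of them response regulators, 3 were higher. RR22, a C-type response regulator known from the junction of seed and funiculus, read 22969, 20929.9 and 20312 against 1686 and 768 (log2 difference 4.01 ± 0.49, adjusted p = 1.69e-06). Its chalazal endosperm signals were 141 to 199, below every chalazal seed coat array. RR16, of the A-type that dampens cytokinin response, read 339.8, 274 and 212 against 47.2 and 21.7 (at least 2.4-fold higher, adjusted p = 0.024), and RR19, a B-type transcriptional activator, 92.5, 385 and 554 against 49.9 and 23.1 (at least 2.47-fold higher, adjusted p = 0.021). RR19 was much brighter in the chalazal endosperm, at 5908 to 16124. RR16 (without chalazal 1 or seed coat 1 or 2, adjusted p up to 0.25) and RR19 (without chalazal 2 or 3 or seed coat 1 or 2, adjusted p up to 0.22) lost the call with 1 array left out. Of 16 auxin genes GH3.9, of the family that conjugates hormones to amino acids, read 1338, 922 and 694 against 38.3 and 1.68 (at least 7.83-fold higher, adjusted p = 6.15e-05), and IAA18, an Aux/IAA repressor, 727, 309 and 356 against 10.8 and 34.3 (at least 3.7-fold higher, adjusted p = 0.0033). The auxin synthesis gene YUC6 was not called, at 1323, 615 and 821 against 351 and 156 (log2 difference 1.59 ± 0.61, adjusted p = 0.12). All 3 chalazal seed coat arrays were above both seed coat arrays for YUC6, as for 15.0% of all probe sets. Of 4 gibberellin and abscisic acid genes none was called. IAA18 (without seed coat 1, adjusted p up to 0.094) lost the call with 1 array left out.

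Transcription factors and growth regulators known from other organs were among the clearest higher genes. HAT2, an auxin-inducible homeodomain-leucine zipper factor, read 8279.9, 7735 and 8398 against 4.08 and 85 (log2 difference 6.84 ± 0.70, adjusted p = 9.90e-08). SHI, a regulator known for restraining gibberellin response, read 2559, 2331 and 1610.1 against 9.73 and 7.2 (at least 17.2-fold higher, adjusted p = 3.37e-07). RBE, a zinc finger repressor known from petal development, read 1391, 1636 and 417 against 3.52 and 2.69 (at least 8.13-fold higher, adjusted p = 5.99e-05). All 3 had chalazal seed coat signals above every seed coat array, as nearly all probe sets called higher did. Their signals in the chalazal endosperm were low (7.77 to 67.2, 8.74 to 34.9 and 3.41 to 52.1). SGP1, a small G protein, read 2779, 1365 and 1254 against 7.88 and 5.14 (at least 13.7-fold higher, adjusted p = 7.06e-07), and BLT, a regulator of trichome branching, 2230.4, 889.8 and 1313 against 40.5 and 2.7 (at least 11.2-fold higher, adjusted p = 9.43e-05). EMS1, a receptor kinase known from anther cell fate, read 824, 1774 and 1322 against 102 and 137 (log2 difference 2.93 ± 0.50, adjusted p = 0.00017). The actin-binding NETWORKED genes NET1D and NET1C were higher by 2.18 ± 0.62 and 3.19 ± 0.43, and NET1C was brighter in the chalazal endosperm (13488 to 21407). This set of floral and growth regulators was put together after values were seen, and 8 of its 31 genes were higher and 0 lower. STZ, a zinc finger factor known from stress responses, was higher at 1394, 325 and 1158 against 14 and 0.907 (at least 6.73-fold higher, adjusted p = 0.00039). NET1D (without chalazal 1 or 2 or seed coat 1 or 2, adjusted p up to 0.17) lost the call with 1 array left out.

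Of 42 MADS-box genes 4 were higher and 0 lower, and 19 were at or under the bound on all 5 arrays. AGL18, known as a repressor of flowering, read 15079.9, 16478 and 10215 against 3727 and 2470.4 (log2 difference 1.98 ± 0.48, adjusted p = 0.007), and AGL16, of the same function, 2087, 1055 and 1272 against 272 and 317 (log2 difference 1.97 ± 0.57, adjusted p = 0.025). The other pair was brighter in the chalazal endosperm: AGL33 read 1067, 749 and 228 against 2.13 and 4.47 (at least 4.82-fold higher, adjusted p = 6.78e-05) beside 7902 to 23759.9, and AGL28 87.2, 184 and 103 against 3.15 and 2.09 (at least 1.2-fold higher, adjusted p = 0.043) beside 1257 to 2204. Of 23 bZIP factors bZIP44 was higher at 27796, 28076 and 23260.2 against 7394 and 8057 (log2 difference 1.58 ± 0.49, adjusted p = 0.041) and AT1G06070 (bZIP69) at 3213, 3996 and 1506 against 623 and 434 (log2 difference 2.12 ± 0.55, adjusted p = 0.012), and none was lower. ZAP1, a WRKY factor, was higher at 11082, 8242 and 5803 against 1751 and 1871 (log2 difference 1.96 ± 0.42, adjusted p = 0.0021), the only called gene of 8 WRKY and NAC genes. The bHLH gene ALC, known from fruit opening, was lower at 847, 823 and 735 against 1832 and 2801 (log2 difference -1.65 ± 0.53, adjusted p = 0.049). AGL18 (without seed coat 2, adjusted p up to 0.15), AGL16 (without chalazal 1 or seed coat 1 or 2, adjusted p up to 0.21) and AT1G06070 (without chalazal 1 or seed coat 1 or 2, adjusted p up to 0.16) lost the call with 1 array left out. So did AGL28 (without any 1 of the 5 arrays, adjusted p up to 0.22), bZIP44 (without any 1 of the 5 arrays, adjusted p up to 0.27) and ALC (without any 1 of the 5 arrays, adjusted p up to 0.43). The call was likewise lost for ZAP1 (without seed coat 1, adjusted p up to 0.051).

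Cell surface and signalling genes were called both ways. Of 15 tetraspanins, membrane proteins that organise other proteins into domains, 3 were higher and none lower. TET5 read 3796, 3107 and 1440.2 against 24.1 and 6.23 (at least 20.8-fold higher, adjusted p = 5.85e-07), TET9 1294, 2312 and 1295 against 20.9 and 36.6 (at least 12.8-fold higher, adjusted p = 5.36e-06) and TET4 152, 839.9 and 104 against 31.9 and 14.3 (at least 2.21-fold higher, adjusted p = 0.029). TET5 was low in the chalazal endosperm (12.8 to 129), TET9 was lower there than in the chalazal seed coat on average (654 to 779.6), and TET4 was far brighter there (15163 to 17445). Of 19 genes for receptor-like kinases and signal peptides, the called ones all encode RALF-like peptides, which raise the pH outside the cell. RALFL32 was higher at 1124, 2646 and 1259 against 18.5 and 34.3 (at least 12.7-fold higher, adjusted p = 5.06e-06) and RALFL28 at 353, 597 and 445 against 15.8 and 4.19 (at least 3.87-fold higher, adjusted p = 0.00062), the latter with 6133 to 15756 in the chalazal endosperm. RALFL34 was lower at 5.55, 78.2 and 129 against 936 and 1021 (log2 difference -3.75 ± 0.64, adjusted p = 0.00017), as were RALFL31 (-2.97 ± 0.64) and RALFL24 (-2.39 ± 0.74). Of 23 calcium and calmodulin genes 3 were lower and none higher. These were IQD16 (-2.94 ± 0.55), IQD30 (-2.85 ± 0.68) and IQD19 (-1.65 ± 0.50), of a calmodulin-binding family. TET4 (without chalazal 2 or seed coat 1 or 2, adjusted p up to 0.24), RALFL24 (without chalazal 2 or seed coat 1 or 2, adjusted p up to 0.31) and RALFL31 (without seed coat 2, adjusted p up to 0.084) lost the call with 1 array left out. So did IQD30 (without seed coat 1, adjusted p up to 0.18) and IQD19 (without chalazal 1 or 2 or seed coat 1 or 2, adjusted p up to 0.23).

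Genes of specialised metabolism were called in both directions. Of 71 UDP-glycosyltransferases and beta-glucosidases 7 were lower (9.86%) and 1 higher (1.41%). BGLU29, a beta-glucosidase, read 34.7, 158 and 428 against 5352 and 5939 (log2 difference -5.18 ± 0.69, adjusted p = 5.02e-06), and its neighbours on the chromosome BGLU15 and BGLU28 were lower too, at -3.19 ± 0.52 and -2.34 ± 0.68. UGT73B1, a glycosyltransferase of small molecules, read 433, 402 and 382 against 6609 and 5361 (log2 difference -3.96 ± 0.58, adjusted p = 2.33e-05). UGT76D1 was the higher member, at 413, 275 and 155 against 90.7 and 3.68 (at least 2.34-fold higher, adjusted p = 0.029). Glutathione transferases, which conjugate glutathione to small molecules, were called in both directions, with GSTU20 at 1196, 1955 and 1761 against 5.43 and 49.9 (at least 13-fold higher, adjusted p = 6.78e-05) and GSTU28 (2.88 ± 0.74) higher and GSTU16 (-3.23 ± 0.67) and GSTU26 (-2.49 ± 0.62) lower. Of 24 cytochrome P450 genes 3 were higher and 1 lower. CYP78A9, known for promoting seed and fruit size from maternal tissue, read 1684, 1987 and 502 against 45.7 and 4.94 (at least 9.78-fold higher, adjusted p = 0.00013). CYP79A2, which starts benzylglucosinolate synthesis, read 146, 998 and 318 against 15 and 98.3 (log2 difference 2.20 ± 0.62, adjusted p = 0.021) beside 19200.4 to 33233 in the chalazal endosperm. BGLU28 (without chalazal 1 or 3 or seed coat 1 or 2, adjusted p up to 0.21), UGT76D1 (without chalazal 1 or seed coat 2, adjusted p up to 0.53) and GSTU28 (without seed coat 1 or 2, adjusted p up to 0.13) lost the call with 1 array left out. So did GSTU26 (without seed coat 1 or 2, adjusted p up to 0.12) and CYP79A2 (without chalazal 2 or seed coat 1, adjusted p up to 0.41).

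Some families were gathered after values were seen and are given as descriptions. ATP-citrate lyase, which makes acetyl-CoA in the cytosol, had 3 of 4 genes lower: ACLA-1 read 450.0, 1288 and 2520.3 against 7978 and 7568 (log2 difference -2.91 ± 0.50, adjusted p = 0.00018), and ACLA-3 and ACLB-1 differed by -2.56 ± 0.72 and -1.75 ± 0.56. Of 8 aldehyde dehydrogenases 3 were lower, with ALDH3F1 at 179, 171 and 54 against 2607 and 2319.8 (log2 difference -4.21 ± 0.67, adjusted p = 7.45e-05), ALDH11A3 at 299, 80 and 473 against 2088 and 3794 (log2 difference -3.61 ± 0.67, adjusted p = 0.00043) and ALDH7B4 at -1.54 ± 0.38. Of 9 tubulins and actins 5 were lower. TUB9, a beta-tubulin, read 143, 322 and 773 against 2879.9 and 2611 (log2 difference -3.10 ± 0.57, adjusted p = 0.00041), with array 3 again the highest of the chalazal seed coat. ACT11 (-3.32 ± 0.66), TUB5 (-2.84 ± 0.67), TUB1 (-2.61 ± 0.61) and TUA6 (-1.78 ± 0.53) were also lower, while TUB7 was bright in both regions at 2623, 2271 and 3924 against 3427 and 3246 (log2 difference -0.40 ± 0.41, adjusted p = 0.67). ACLA-3 (without chalazal 1 or seed coat 1 or 2, adjusted p up to 0.21), ACLB-1 (without chalazal 1 or 3 or seed coat 1 or 2, adjusted p up to 0.27) and ALDH7B4 (without seed coat 1 or 2, adjusted p up to 0.1) lost the call with 1 array left out. So did ACT11 (without seed coat 2, adjusted p up to 0.077), TUB5 (without seed coat 2, adjusted p up to 0.13) and TUB1 (without seed coat 1, adjusted p up to 0.12). The call was likewise lost for TUA6 (without chalazal 1 or 2 or seed coat 1 or 2, adjusted p up to 0.37).

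Plastid and housekeeping lists showed few calls. LHCB4.3, a minor light-harvesting protein of photosystem II, was lower at 123, 289.7 and 225 against 3632 and 2835 (log2 difference -3.98 ± 0.52, adjusted p = 4.61e-06), the single called gene of 11 nuclear photosynthesis genes. LHCB4.1, its relative, read 772, 303 and 638 against 1171 and 1105 (log2 difference -1.23 ± 0.51, adjusted p = 0.15). Of 43 plastid-encoded genes 1 was lower, rbcL, the large subunit of Rubisco, at 8629, 7712 and 7571 against 20092 and 16391 (log2 difference -1.37 ± 0.34, adjusted p = 0.0087), and their median difference was -0.42. None of 9 mitosis and replication genes and none of 7 surface lipid and oil genes was called. Of 33 ubiquitin genes 2 were higher, UBC31, a conjugating enzyme, at 1465, 4565 and 1045 against 47.8 and 32.9 (at least 15.5-fold higher, adjusted p = 1.00e-06) and UBP19, a deubiquitinating enzyme, at 721, 565 and 460.4 against 57 and 136 (log2 difference 2.15 ± 0.56, adjusted p = 0.012). Both were brighter in the chalazal endosperm, at 26980.2 to 48867 and 3257 to 8434. rbcL (without seed coat 1 or 2, adjusted p up to 0.13) and UBP19 (without chalazal 1 or seed coat 1, adjusted p up to 0.25) lost the call with 1 array left out.

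Some called genes lay side by side. In the order of protein-coding genes of the TAIR10.1 assembly there were 7 runs of at least 3 measured genes in a row called the same way, with at most 3 places between them. A stretch of chromosome 4, picked after its values were seen, was the most marked: 7 of 18 measured genes among 24 in a row were higher, all with locus names only. They were AT4G29570 (7.76 ± 0.63), AT4G29580 (7.08 ± 0.64), AT4G29600 (4.80 ± 0.68), AT4G29620 (6.54 ± 0.65), AT4G29630 (3.86 ± 0.61), AT4G29640 (7.64 ± 0.62) and AT4G29650 (6.40 ± 0.61), each with limma adjusted p of 6.78e-05 or less. AT4G29590 and AT4G29610, which lie between them, were not called, and AT4G29680, a few genes on, was lower at -3.11 ± 0.63. The chromosome 4 run, 1 of the 7 runs, therefore holds only the 4 genes from AT4G29620 to AT4G29650. AT4G29570 read 6585, 7256 and 11279.5 against 3.23 and 2.84 and AT4G29640 10971, 10714 and 17233 against 63.9 and 3.32, and neither exceeded the bound on a seed coat array. Adjacent copies of a gene can share probes, so the values of single members are uncertain here. The other runs were AT1G20670 to AT1G20690, AT2G28030 to AT2G28080 and AT5G40960 to AT5G40980 among higher genes, and AT2G29340 to AT2G29370, AT5G02860 to AT5G02890 and the 3 BGLU genes among lower genes. Each of these other runs held a gene that lost the call with 1 array left out. All members stayed called in 3, 4 and 5 of the 7 runs without chalazal seed coat array 1, 2 or 3. They did so in 2 without seed coat array 1 and in 1, the chromosome 4 run, without seed coat array 2. All 7 higher genes of the chromosome 4 stretch stayed called with any 1 of the 5 arrays left out.

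**Figure D5:**
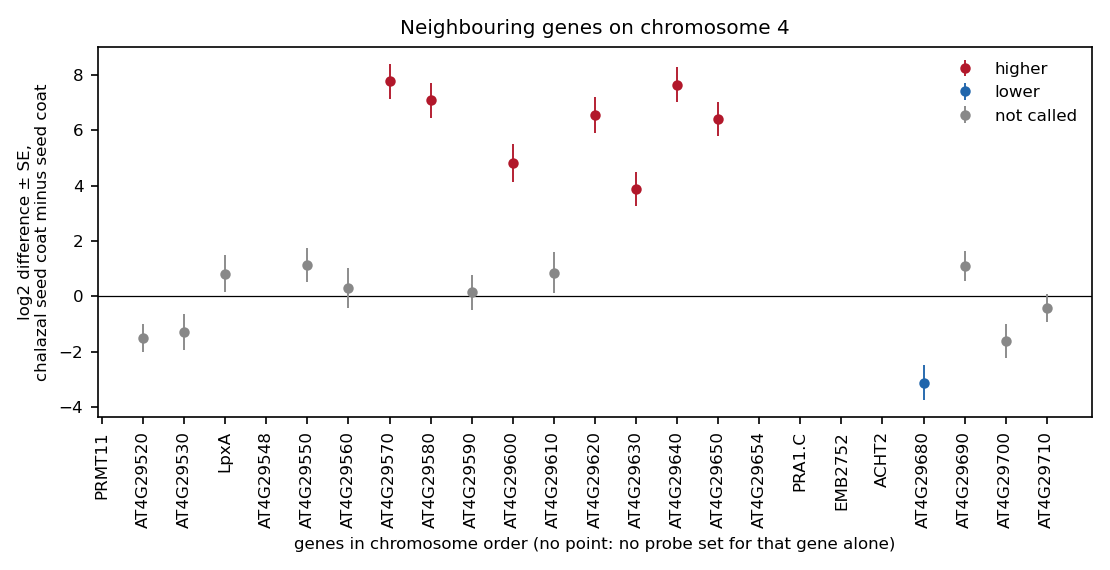
Log2 difference, chalazal seed coat minus seed coat, with the SE of the limma fit (bars), for neighbouring genes of chromosome 4 in gene order. Red is higher, blue lower, grey not called, and a gene with no point has no probe set annotated to it alone. The 7 higher genes run from AT4G29570 to AT4G29650, with AT4G29590 and AT4G29610 not called among them.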

How the data were processed

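The authors deposited 1 table of linear signal intensity, 1 column per array, and per the submitters' processing notes the values came from GCOS, Affymetrix's software, with version and scaling not given in the sources used here. Those intensities were taken as log2(signal + 30.2), the offset being the 25th percentile of all values, and each array was centred on its median over 22746 Arabidopsis probe sets. The offset makes log2 differences of dim genes too small. Control probe sets (64) were left out of the test. Deposited intensities carry no read depth, and the number of arrays limits the precision.

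Differences were tested with limma 3.58.1 (R 4.3.3), lmFit and eBayes with an intensity trend, in a model of 7 group means over all 16 arrays, two-sided, with Benjamini-Hochberg adjustment over all Arabidopsis probe sets. Replicate numbers were not used as pairs, because the labels do not say that they pair samples. The deviations of same-numbered arrays correlated at 9.51e-06 and -0.027. These values cannot decide the question, since the deviations of only 2 seed coat arrays mirror each other. In simulated data 22546 of 22746 probe sets were unchanged, and 68, 66 and 66 had log2 changes of 1, 2 and 4. The fit called none, 31.8% and 84.8% of these, and 0.0133% of the unchanged ones. The measured data had 2043 called probe sets, and median SDs of 0.627 for the chalazal arrays against 0.323 for the others compared. The simulated rates hold for the simulated data only, and do not give the share of true differences found or missed between the regions.

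Genes were named from the platform annotation: 13513 probe sets name 1 gene, 503 several and 8730 none, and 13436 of the first matched the TAIR10.1 gene table. Named genes are the 12 largest differences per direction without overlap, up to 4 called genes per list by smallest p, up to 2 bright members that were not called, and every VPE gene, with further members named after their values were seen. Every measured SWEET, EXPA and XTH gene was read, but only some of them are named. Wrong matches to the lists' name patterns were corrected by annotation. The comparison, lists and families were chosen with earlier results of these data known. The lists held no measured suberin or aquaporin gene.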

Additional observations from a re-analysis of the deposited data

How the results depend on the processing

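Of 161 called genes followed under 14 alternatives, 88 kept direction and call under each, 73 lost the call in at least 1, and none changed direction. The number of lower probe sets moved by more than 1.5 times only with an offset of 1, to 751 from 1201, apart from leaving out arrays. Leaving out 1 array gave 457 to 844 higher and 443 to 1284 lower, the smallest numbers without seed coat array 2, where the fit takes the spread of the lone seed coat array from the other groups. Without that array 42.8% of the 2043 calls were kept, and without seed coat array 1 48.7%. Other settings gave 946 higher and 972 lower (quantile normalisation), 933 and 1428 (offset of 100), 915 and 1306 (19475 probe sets after a filter on dim ones), 639 and 916 (5 arrays alone), 991 and 1502 (array weights) and 846 and 1138 (no trend). With the replicate number as a block, though the arrays share only a number, 904 were higher and 1585 lower. The cause of these shifts was not tested. Signal over background limits the dim genes: a probe set at or under the bound on all 5 arrays has no measured difference.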
